A study of Homo sapiens with 8 samples.

Results

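Olfactory receptor genes of the families OR51, OR52 and OR56 were examined by strand in 8 poly(A) RNA libraries. Members were the genes whose symbol is one of these family names followed by letters and a final number, which leaves out symbols that end in P for pseudogene. The rule gave 58 gene identifiers with 57 distinct symbols, since OR51H1 has 2 identifiers, of 78932 genes in the tables. The set was chosen by read totals, since it held most reads of all olfactory receptor genes, so that share is a description and supports nothing here. The group difference of the set was also known when it was chosen, so the tests below are not independent evidence of it. All libraries came from HCT116, a human colorectal cancer line, carrying a degradation tag on NUDT21, the small subunit of the poly(A) site factor CFIm. In 4 libraries the cells had received JTE-607 together with DMSO, and in the other 4 JTE-607 together with the degrader dTAGV1. JTE-607 inhibits CPSF73, the nuclease that cuts pre-mRNA at poly(A) sites, and every library had it. DMSO is the solvent control, so the comparison shows what differs upon dTAGV1 in cells given JTE-607. How far cleavage was inhibited was not measured here. The labels do not say whether replicates came from separate cultures or whether the tagged line is 1 clone, and p-values measure the spread between these libraries, which may be technical.

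Olfactory receptors are G protein-coupled receptors that detect odorants on sensory neurons of the nose. Each such neuron expresses a single receptor gene, and the receptor signals through the G protein GNAL, the adenylyl cyclase ADCY3 and a cyclic nucleotide-gated channel. OR51, OR52 and OR56 belong to class I, the receptors related to those of fish, and sit side by side in a large cluster with a coding sequence that is usually a single exon. Some members are also transcribed outside the nose, and OR51B4 has been studied as a receptor in colorectal cancer cells. OR51B5 differs from most members in having annotated long transcripts that are spliced from distant upstream exons.

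Nearly all reads of the members came from 1 stretch of chromosome 11 and from 1 strand of it. GENCODE 29 gives coordinates on GRCh38 for 57 members, all on chromosome 11, and 53 of them are protein-coding there. OR51B5 (ENSG00000167355, protein-coding) spans 202 kb on the minus strand, from chr11:5303444-5505652, and it has 5 annotated transcripts. Within this span lie OR51B2 and OR51I1 on the same strand, and OR51B6, OR51M1, OR51J1, OR51Q1, OR51I2 and OR52D1 on the plus strand. OR51B4 lies 1498 bases past the far end of OR51B5 on the minus strand. On chromosome 11, the plus-strand genes are OR51B6 (ENSG00000176239, chr11:5351508-5352446), OR51M1 (ENSG00000184698, chr11:5383812-5393263), OR51J1 (ENSG00000184321, chr11:5402597-5403547), OR51Q1 (ENSG00000167360, chr11:5422111-5423206), OR51I2 (ENSG00000187918, chr11:5449323-5456518) and OR52D1 (ENSG00000181609, chr11:5488685-5489749). The minus-strand genes are OR51B4 (ENSG00000183251, chr11:5301014-5301946), OR51B2 (ENSG00000279012, chr11:5323359-5324297) and OR51I1 (ENSG00000167359, chr11:5440570-5441514). With OR51B5, these 10 members were the ones with at least 20 reads over the 8 libraries, and the stretch from OR51B4 to the first base of OR51B5 holds no other member. Exons of the 9 other genes share 0 bases with exons of OR51B5, so a read in them lies in an annotated intron of OR51B5 or past its end.

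The annotated ends of OR51B5 transcripts are shown because a library primed on poly(A) tails reads the RNA near such ends. Capitals mark AATAAA, the most common poly(A) signal, in the last 30 bases of 3 transcripts with different last exons, all on the minus strand of GRCh38.
OR51B5-202, chr11:5340325-5340354: aaatgatAATAAATAAAaagaatcttcaaa
OR51B5-205, chr11:5303444-5303473: aggtttttataaAATAAAaaaggtgcaaag
OR51B5-204, chr11:5305167-5305196: gatcaactttgctatcctcttacatctgtg
The signal was present in the first pair and not in the third, and 21.3% of 206499 GENCODE transcripts of at least 30 bases hold it in their last 30 bases. In OR51B5-202 capitals mark 2 overlapping copies. The remaining pair of OR51B5 models lack it in that window.

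The minus strand was also searched across the gene models inside the span, since the reads lay on that strand. AATAAA was found there in 3 of the 9 other genes: 3 times in OR51B6, 1 time in OR51M1 and 1 time in OR51I2. The copies in OR51M1 and OR51I2 lie in their longest models, of 4092 and 3302 bases, and their models of 1058 and 1070 bases hold 0. These minus-strand stretches are shown with 1 copy in capitals.
OR51B6, chr11:5352404-5352433: tgaggcagagagAATAAAcgaagtatgcca
OR51M1, chr11:5390614-5390643: atgatgaccttcAATAAAgttgccttctgg
OR51I2, chr11:5456475-5456504: aagattatgttaAATAAAaagaagttaaag
Of 371 olfactory receptor models of 900 to 1100 bases, 44.5% hold AATAAA on the strand opposite to the gene and 21.3% on their own strand, a share that does not apply to the longer models of OR51M1 and OR51I2. The longest run of A on the minus strand was 4 to 7 bases in the models of the 9 genes, and 11 bases in OR51B5-202. A match describes these letters and does not show that a site was used.

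Sense-strand reads of the members were almost all reads of OR51B5. The 58 members had 5133 sense reads, and OR51B5 took 4879 of them, or 95.1%. OR51B4 had 93, OR51I1 80 and OR51B2 76. The other 347 olfactory receptor genes had 83 sense reads together, of which the most-read gene, OR2B6, had 21. OR51B5 ranked 1239 among all genes by sense reads. By family, OR51 genes had 5130 sense reads, OR52 genes 3 and OR56 genes 0.

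Opposite-strand reads lay in other members. The set had 1741 such reads, with 846 in OR51M1, 498 in OR51I2, 157 in OR51Q1, 125 in OR51B6, 82 in OR52D1 and 28 in OR51J1. These 6 genes lie on the plus strand, so their opposite-strand reads come from the minus strand, the strand of OR51B5. Their sense strand held 1 read in all, in OR51M1. The 4 members with at least 20 sense reads had 0 reads on their opposite strand. Among the 10 genes, the plus strand of the stretch thus gave 1 read in 8 libraries.

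The other 48 members were at or near 0. Of these, 40 had 0 reads on both strands, and 8 had 1 or 2, which sums to 9 reads. The members closest to the naming limit of 20 reads were OR51J1 with 28 above it and OR52B6 with 2 below it. A count of 0 among 48440452 uniquely mapped reads allows a level of up to 0.0619 reads per 1000000, for counting error only. OR51E1 and OR51E2, the members best known from prostate tissue, were among those at 0 and are named here after their values were seen.

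**Figure D1:**
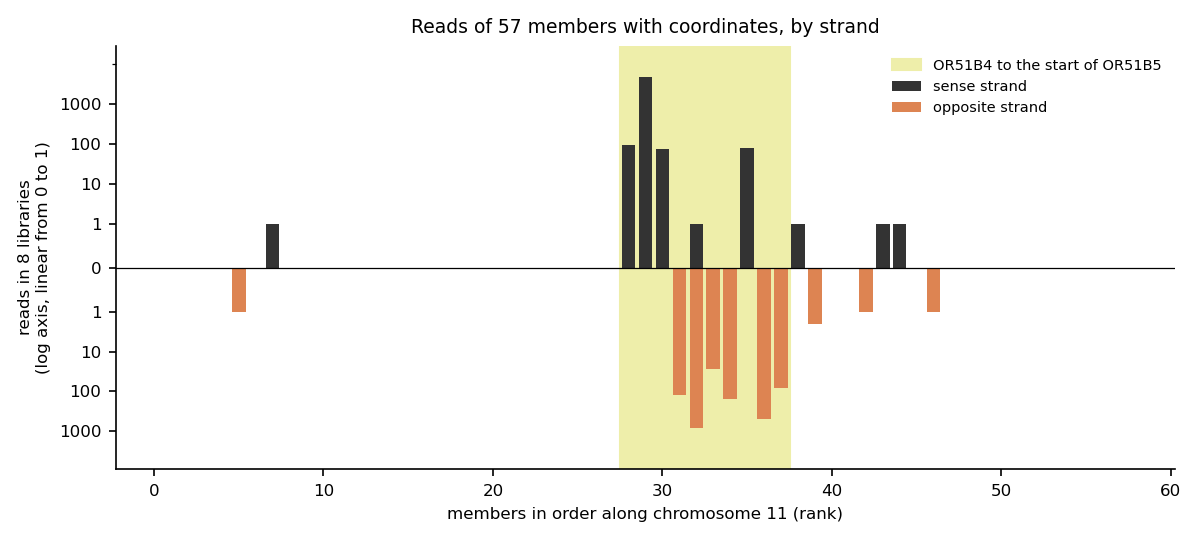
Reads summed over 8 libraries for the 57 members with coordinates, in order along chromosome 11, with sense reads above 0 and opposite-strand reads below it on a log axis that is linear from 0 to 1. The shaded stretch from OR51B4 to the first base of OR51B5 holds the 10 genes with at least 20 reads, and every bar outside it stands at 1 or 2 reads.

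OR51B5 rose upon dTAGV1. In order of replicate number, it had 511, 553, 544 and 551 sense reads with DMSO, against 715, 640, 599 and 766 with dTAGV1. As reads per 1000000 uniquely mapped reads (RPM) these were 92.2, 86.1, 97.3 and 89.7 with DMSO, and 117.6, 110.7, 103.1 and 108.4 with dTAGV1. Every dTAGV1 library was above every DMSO library. The mean went from 91.3 ± 4.69 to 109.9 ± 6.03 RPM (SD, n = 4 each), a ratio of 1.20. On the TMM scale its log2 fold change was 0.44 (SE 0.07, edgeR quasi-likelihood test with p adjusted by Benjamini-Hochberg, adjusted p = 1.47e-05). Scaling by uniquely mapped reads gave 0.27 (edgeR, adjusted p = 0.00371), while that scaling moved the median of all tested genes by -0.17 and the share of higher calls from 50.8% to 34.8%.

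OR51B4 fell furthest of the tested members. Its sense counts were 18, 28, 19 and 15 with DMSO and 1, 3, 3 and 6 with dTAGV1. The highest dTAGV1 count was below the lowest DMSO count. Expression went from 3.36 ± 0.787 to 0.512 ± 0.28 RPM (SD, n = 4 each). In the fit, OR51B4 had a log2 fold change of -2.47 (SE 0.40, edgeR adjusted p = 8.81e-06). OR51B4 and OR51B5 thus differed in sign although the former starts 1498 bases past the end of the latter on the same strand.

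OR51B2, which lies in an intron of the long OR51B5 transcripts, also fell. It had 13, 15, 13 and 19 sense reads with DMSO and 3, 2, 4 and 7 with dTAGV1, without overlap. The mean went from 2.53 ± 0.379 to 0.63 ± 0.279 RPM (SD, n = 4 each), or a log2 fold change of -1.77 (SE 0.38, edgeR adjusted p = 0.000302). OR51I1 is the fourth member read on its sense strand and did not follow OR51B2. Its counts were 9, 8, 9 and 6 with DMSO and 17, 6, 14 and 11 with dTAGV1, and the groups overlapped. OR51I1 was below the default filter. In a fit with a lower filter its log2 fold change was 0.68 (SE 0.37, edgeR adjusted p = 0.133).

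On the sense strand, 3 of the 58 members passed the filter and all 3 were called, 1 higher and 2 lower, where 57.9% of all 12618 tested genes were called, 29.4% higher and 28.5% lower. The filter asks for about 10 reads in at least 4 libraries, and OR51B4 and OR51B2 reached 10 reads in 0 dTAGV1 libraries. They passed through the DMSO libraries alone, so that count supports nothing. With no filter, 9 members had a sense read and were tested, and the same 3 were called, where 27.0% of all 29925 genes were called. Their adjusted p-values were 4.12e-06 for OR51B5, 6.14e-08 for OR51B4 and 0.000279 for OR51B2 (edgeR). The members were chosen by read totals, so this count supports nothing either.

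OR51M1 carried the most opposite-strand reads, and these fell. Its counts were 133, 174, 151 and 133 with DMSO and 71, 52, 60 and 72 with dTAGV1. Each dTAGV1 library was below the lowest DMSO library. The mean went from 24.9 ± 2.62 to 10.3 ± 1.1 RPM (SD, n = 4 each), 2.42 times lower. The log2 fold change was -1.24 (SE 0.14, edgeR adjusted p = 9.3e-09). At OR51I2, the next in reads, the counts were 91, 91, 63 and 66 with DMSO and 47, 33, 42 and 65 with dTAGV1. The raw counts overlapped, since dTAGV1 replicate 4 had 65 and DMSO replicate 3 had 63, but in RPM they did not, at 10.7 to 16.4 with DMSO against 5.71 to 9.2. OR51I2 had a log2 fold change of -0.77 (SE 0.18, edgeR adjusted p = 0.000695), the smallest decrease among the tested opposite-strand members.

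OR51Q1 showed the largest opposite-strand decrease among tested members. It had 36, 21, 34 and 34 reads with DMSO and 9, 6, 7 and 10 with dTAGV1, a log2 fold change of -1.98 (SE 0.31, edgeR adjusted p = 2.38e-06). OR51B6 had 15, 21, 29 and 25 against 10, 2, 7 and 16, and its groups did not overlap in RPM, although in raw counts dTAGV1 replicate 4 had 16 and DMSO replicate 1 had 15. Its log2 fold change was -1.39 (SE 0.36, edgeR adjusted p = 0.00152). OR52D1, the member nearest to the first base of OR51B5, had 18, 13, 11 and 14 against 4, 7, 6 and 9 without overlap. Its log2 fold change was -1.12 (SE 0.37, edgeR adjusted p = 0.0111). That call was lost without dTAGV1 replicate 1, at -0.93 (edgeR, adjusted p = 0.0511), and with DESeq2, at -1.16 (adjusted p = 0.0784).

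OR51J1, annotated as a pseudogene in GENCODE, had the fewest reads of the 10 genes. It had 9, 4, 4 and 4 opposite-strand reads with DMSO and 0, 4, 0 and 3 with dTAGV1, and the groups overlapped in RPM. It was below the default filter, and with the lower filter its log2 fold change was -1.58 (SE 0.69, edgeR adjusted p = 0.0669).

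On the opposite strand, 5 of the 58 members passed the filter, and all 5 were called and lower, where 48.4% of all 3324 tested genes were called and 24.5% were called lower. OR51M1 and OR51I2 reached 10 reads in every library of both groups. OR51Q1, OR51B6 and OR52D1 reached it in all 4 DMSO libraries but in only 1, 2 and 0 dTAGV1 libraries, so they passed through the DMSO group and the count supports nothing. With no filter, 10 members had an opposite-strand read and were tested, and the same 5 were called. Their adjusted p-values ran from 6.84e-15 for OR51M1 to 0.0475 for OR52D1 (edgeR). Of all 20138 genes in that fit 9.04% were called, but most of these genes were below the default filter. The members were chosen by read totals, so this count supports nothing either.

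Groups did not overlap in RPM in 8 of the 10 genes, with OR51I1 and OR51J1 as the exceptions. Over all genes tested, groups did not overlap in 51.6% on the sense strand and 43.7% on the opposite strand. Those shares are over genes that passed the filter, which OR51I1 and OR51J1 did not. OR51B4, OR51B2, OR51Q1, OR51B6 and OR52D1 passed it through the DMSO libraries, so the count of 8 supports nothing.

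**Figure D2:**
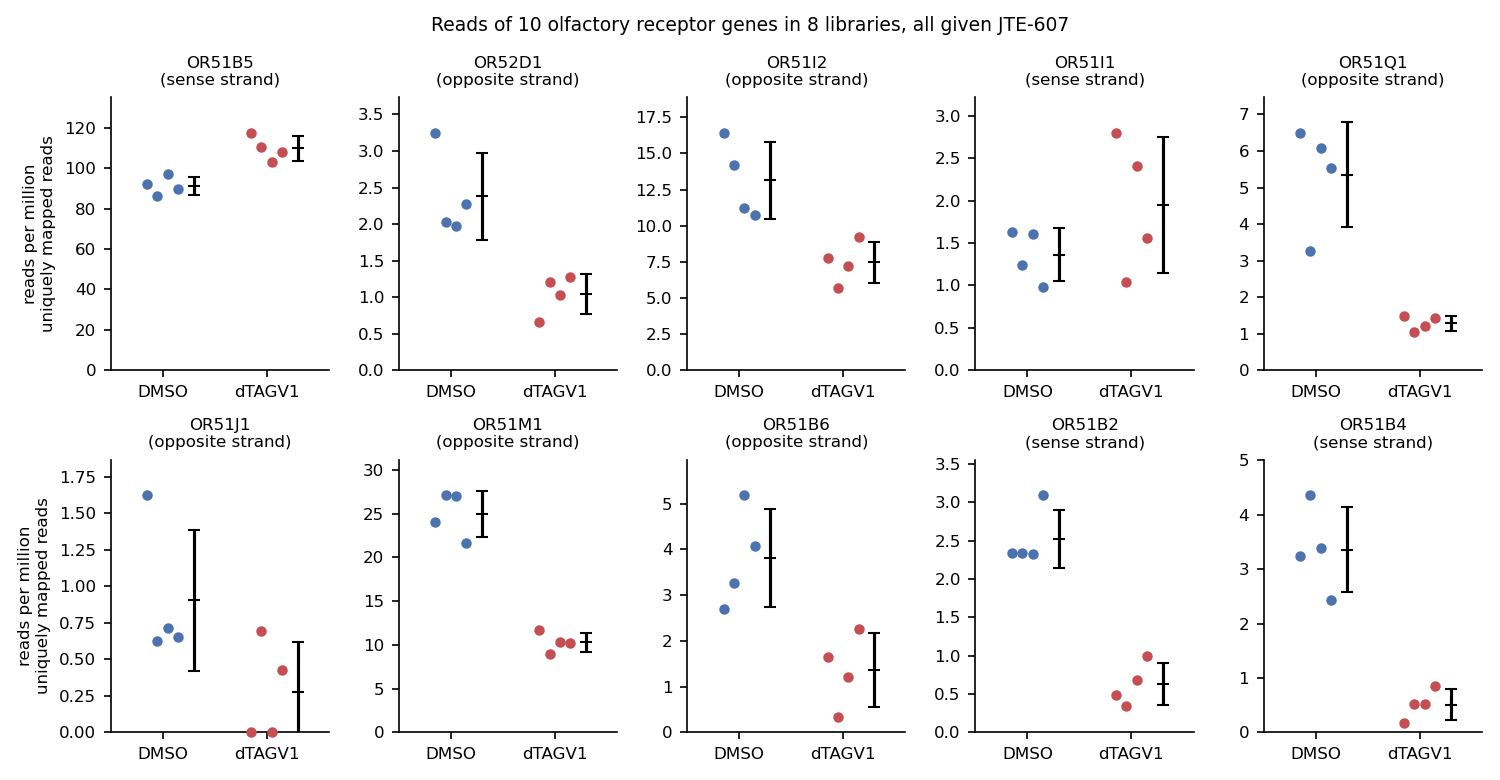
RPM of the 10 genes on the strand that carries their reads, 1 point per library, with the mean and SD of each group of 4 beside the points and each vertical axis starting at 0. OR51B5 is higher in all 4 dTAGV1 libraries, 7 genes are lower in all 4, and the points of OR51I1 and OR51J1 overlap.

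Because OR51B5 rose while the 7 other called genes fell, the sums over the set depended on which genes were added. Sense reads of all members were 99.4, 94.0, 104.8 and 96.4 RPM with DMSO, and 121.2, 112.8, 106.7 and 111.9 with dTAGV1. The mean was 14.5 RPM higher with dTAGV1, going from 98.7 ± 4.63 to 113.2 ± 6.03 (SD, n = 4 each). Without OR51B5 the remaining sense reads went the other way, from 7.34 ± 0.532 to 3.21 ± 0.758 (SD, n = 4 each). Opposite-strand reads of all members were 54.5, 50.5, 52.4 and 45.3 with DMSO, and 23.4, 18.0, 21.2 and 24.8 with dTAGV1, with means of 50.7 ± 3.95 and 21.8 ± 2.95 (SD, n = 4 each). That is a difference of -28.8 RPM, and in all 3 sums every library of 1 group lay beyond every library of the other. No test was made of a sum, because the members were chosen with results known.

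The balance between the 9 genes and OR51B5 within each library shows the same split without any scaling between libraries. As percent of the OR51B5 reads of the same library, the 9 other genes had 66.9%, 67.8%, 61.2% and 57.4% in minus-strand reads with DMSO, and 22.7%, 18.0%, 23.9% and 26.0% with dTAGV1. The lowest DMSO library was above the highest dTAGV1 library. Means were 63.3 ± 4.94 and 22.6 ± 3.39 (SD, n = 4 each), 2.8 times lower upon dTAGV1. OR51M1 went from 27.4 ± 3.12 to 9.37 ± 0.872 percent of OR51B5 reads, OR51I2 from 14.5 ± 3.14 to 6.81 ± 1.37, and OR51B4 from 3.7 ± 0.981 to 0.473 ± 0.263 (SD, n = 4 each). OR51I1 had 1.49 ± 0.296 and 1.77 ± 0.706 (SD, n = 4 each), and its groups overlapped. The groups of the other 8 genes did not overlap in this measure, OR51J1 included, although OR51J1 overlapped in RPM. OR51B5 was itself higher in every dTAGV1 library, which lowers any ratio to it. The share of all genes without overlap in this ratio was not computed, so the count of 8 genes without overlap supports nothing here.

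**Figure D3:**
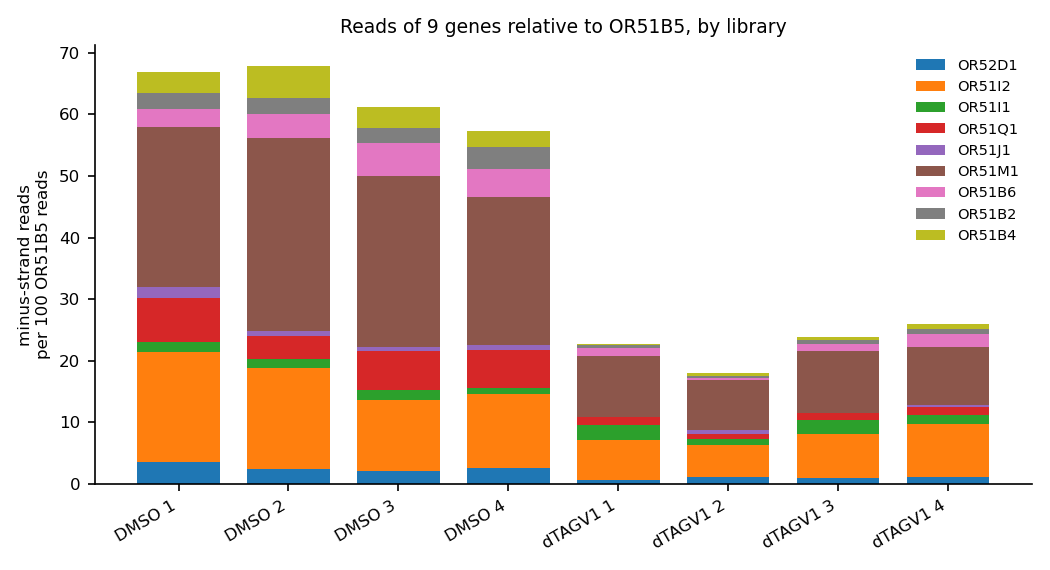
Minus-strand reads of 9 genes relative to the OR51B5 reads of the same library (percent), for each of 8 libraries, stacked by gene. Stacks reach 57.4 to 67.8 in the DMSO libraries and 18.0 to 26.0 in the dTAGV1 libraries, and OR51M1 and OR51I2 make up the largest parts.

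Along the span, with OR51B5 left out, minus-strand reads were spread over the genes rather than gathered at 1 end. OR51B5 itself held most minus-strand reads. Apart from the exon at its first base, its exons lie towards the far end, at chr11:5303444-5346910. Distances here run from the first base of OR51B5 to the centre of each gene, and densities are RPM for each kb of exon. Libraries primed on poly(A) tails read RNA near such tails, so reads need not scale with exon length. Exon lengths ran from 933 bases at OR51B4 to 4099 at OR51M1, and those of plus-strand genes come from models on the other strand. Reads outside annotated exons are not in these counts. With DMSO the density was 2.23 ± 0.558 at OR52D1 (16.4 kb), 3.98 ± 0.802 at OR51I2 (52.7 kb), 4.88 ± 1.31 at OR51Q1 (83.0 kb) and 6.08 ± 0.639 at OR51M1 (117.1 kb), with SD over 4 libraries. It was 2.69 ± 0.404 at OR51B2 (181.8 kb) and 3.6 ± 0.843 at OR51B4 (204.2 kb). OR51I1 (64.6 kb) and OR51J1 (102.6 kb) had the lowest DMSO densities, at 1.44 ± 0.33 and 0.95 ± 0.507, and the spread of OR51I2, OR51Q1, OR51B6 and OR51B4 overlapped. With dTAGV1 the densities ran from 0.293 ± 0.358 at OR51J1 to 2.51 ± 0.268 at OR51M1. The 2 nearest genes, OR52D1 and OR51I2, had log2 fold changes of -1.12 and -0.77, and OR51Q1 at 83.0 kb had -1.98. OR51M1 at 117.1 kb had -1.24 and OR51B6 at 153.7 kb -1.39, and the 2 farthest, OR51B2 and OR51B4, had -1.77 and -2.47. With the lower filter, OR51I1 at 64.6 kb had 0.68 and OR51J1 at 102.6 kb -1.58. The decrease thus did not grow steadily with distance. Differences between these fold changes were not tested.

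**Figure D4:**
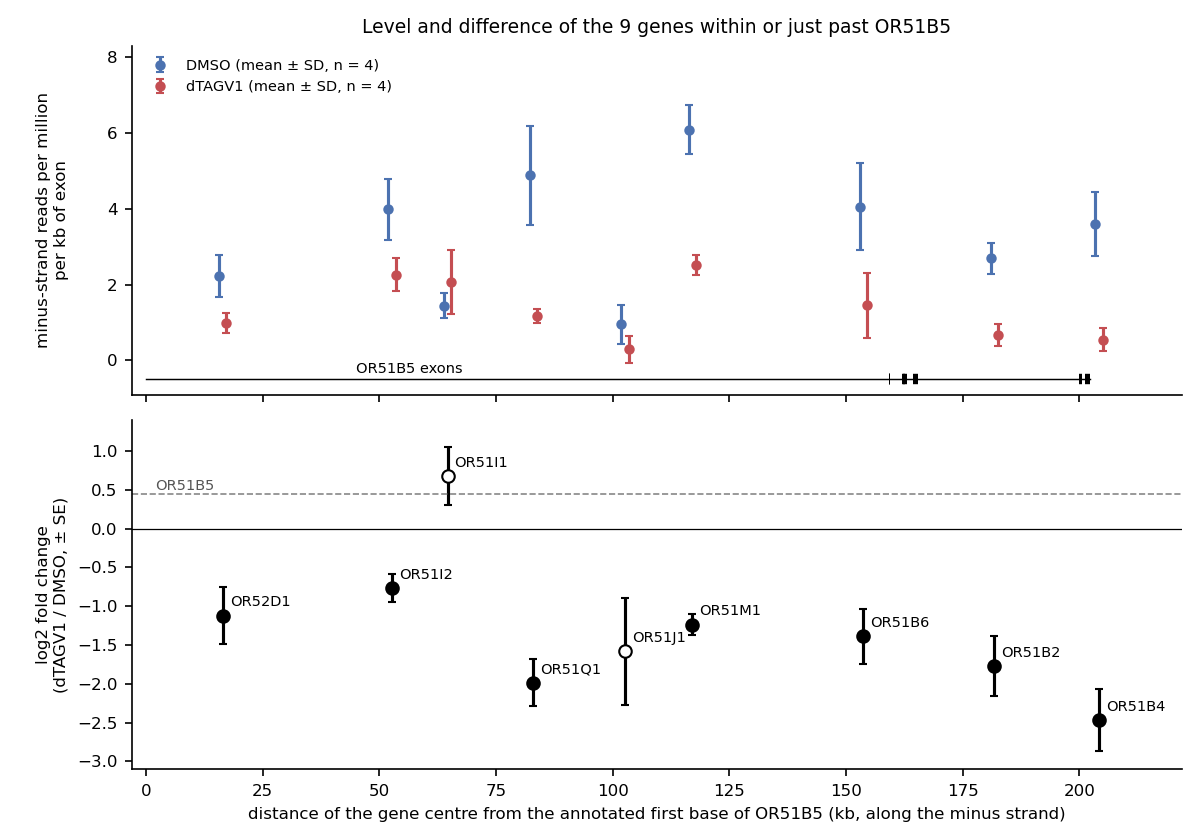
Upper panel: minus-strand RPM per kb of exon (mean ± SD, n = 4) at 9 genes against the distance of the gene centre from the first base of OR51B5, with OR51B5 exons as a black track under them. Lower panel: log2 fold change with its standard error (edgeR), with open points for the 2 genes read from the fit with a lower filter and a dashed line at 0.44 for OR51B5; 8 genes lie below 0 and OR51I1 lies above.

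Non-member models that lie wholly within the same stretch held few reads. There are 6 of them with counts, all pseudogenes, and 3 had minus-strand reads, 18 with DMSO and 8 with dTAGV1. OR51B8P took 15 and 7 of these. None of these models passed the filter. AC104389.4, a protein-coding gene on the same strand that spans the whole stretch and reaches beyond it, is not among these 6 and had 33 sense and 26 opposite-strand reads.

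Overlaps limit what the counts of OR51B5 show. Of its 3965 exonic bases in GENCODE 29, 211 (5.32%) are shared with exons of 3 other genes on the same strand, and reads there would count to no gene. The tables give 1 count per gene, so reads of OR51B5 could not be placed on 1 of its alternative last exons. Coding models of OR51B2, OR51B4, OR51B5 and OR51B6 were 70.1% to 72.1% identical in pairs, and their longest shared run was 23 bases. In bulk RNA, fewer cells with a transcript and less of it in each cell cannot be told apart.

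The summed reads of the other 347 olfactory receptor genes overlapped between groups on both strands. Summed sense reads were 2.02 ± 0.422 RPM with DMSO and 1.39 ± 0.397 with dTAGV1, and summed opposite-strand reads 5.82 ± 1.35 and 6.96 ± 1.16 (SD, n = 4 each). On the opposite strand the difference between groups was -28.8 RPM for the members and 1.14 RPM for the other receptors, and these were not tested against each other.

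Genes that olfactory receptors need for signalling and trafficking were mostly absent or below the filter. Of 24 such genes, 10 passed the filter, and 2 rose and 5 fell, with a median log2 fold change of -0.17 against 0.01 over all tested genes, of which 29.4% were called higher and 28.5% lower. The adenylyl cyclase ADCY3 fell by 1.70 on the log2 scale (SE 0.26, edgeR adjusted p = 4.94e-06). REEP1, a protein that helps receptors reach the surface, fell by 1.63 (SE 0.24, edgeR adjusted p = 2.32e-06). PDE4A, which degrades cyclic AMP, and LHX2, a transcription factor of olfactory neurons, had values of -0.59 and -0.65 and both were called. GNB1, a G protein beta subunit of many tissues, had -0.17 and was called (edgeR, adjusted p = 0.0403). GNAL, the G protein of odorant signalling, rose by 0.87 (SE 0.32, edgeR adjusted p = 0.0228), and the receptor kinase GRK3 rose by 0.48 (edgeR, adjusted p = 0.00548). RTP1 and RTP4, receptor chaperones, and OMP, CNGA2, ANO2, STOML3 and EBF1 had 0 reads.

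The libraries carried most of the listed markers of their line. Of 8 colon epithelial markers, 6 passed the filter, and the summed level of the 8 was 1017 to 1227 RPM with DMSO and 727 to 803 with dTAGV1. CDX1 was at 0, and VIL1 had 6 reads over the 8 libraries and was below the filter. Of the 6 that passed, EPCAM was called higher at 0.28, and KRT18 and KRT19 were called lower at -0.60 and -0.65 (log2 fold changes, edgeR). KRT8 at -0.38, CDX2 at -0.21 and CDH1 at 0.02 were not called. Of 9 olfactory neuron markers 4 were at 0, including OMP and CNGA2, and 3 passed the filter, with ADCY3 and LHX2 lower and GNAL higher. The summed level of the 9 was 23.8 to 31.6 RPM with DMSO and 12.6 to 20.1 with dTAGV1. The 5 erythroid markers had summed levels of 0 to 0.283 RPM. Of 4 leukocyte and 3 fibroblast markers, COL1A1 alone passed the filter, and was not called. The degrader acts on the tagged protein, and the RNA of NUDT21 had 18.8 to 23.4 RPM with DMSO and 2.58 to 6.08 with dTAGV1. Libraries held 5543223 to 7067745 uniquely mapped reads. Reads without a gene on the sense strand made up 30.1% to 33.6% of these with DMSO and 35.9% to 37.4% with dTAGV1, and the part of these shares and of the marker sums in the results above was not tested.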

How the data were processed

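Libraries were made from Trizol-extracted total RNA with the QuantSeq forward kit, which reads RNA near poly(A) tails, per the labels' protocols. The deposited values are whole-number read counts per gene in the layout of STAR, with 1 column irrespective of strand, 1 for the gene's strand and 1 for the opposite strand. The submitters' processing notes name FastQC, fastp, STAR, HTSeq, DESeq2 and GRCh38. Annotation, versions, read filters and whether molecular identifiers were counted are not given in the sources used here, so intervals and limits cover counting error only. The 4 totals of reads given to no gene, 56.7% to 62.8% of reads, stayed out of tests. Uniquely mapped reads are reads counted to genes plus those with no feature or several features.

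Gene symbols were matched by identifier, and coordinates, exons and transcript sequences from GENCODE 29 (GRCh38), which is not stated to be the authors' annotation. Both strands were fitted over all genes with edgeR 4.0.16 in R 4.3.3 (filterByExpr defaults, TMM, robust quasi-likelihood F test), with Benjamini-Hochberg adjustment over all tested genes and a threshold of 0.05. A log2 fold change above 0 means more reads upon dTAGV1. The lower filter used a minimum count of 3 and a minimum total of 10. The fit was tested on simulated data. Named genes were members with at least 20 reads on either strand or past the filter, with annotated neighbours within 10 kb. Of those neighbours, some are not reported here. Members and lists were chosen with earlier results of these data known. Alternatives were other scalings, filters, DESeq2 1.42.0, strand-blind counts, a replicate term, other denominators and leaving out each library. Values of OR51I1 and OR51J1 from the lower filter were chosen after seeing the data. Figures used matplotlib 3.10.9.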

Additional observations from a re-analysis of the deposited data

Results flagged for a closer look

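In groups of 4 libraries, 4 of 36 had 1 library far from the other 3 relative to the range of the group. For independent values chance would flag about 1 in 20 groups. Some groups here are sums over genes that were also examined alone, so that rate does not apply as it stands. OR51B2 had 3.09 RPM on the sense strand in DMSO replicate 4, above the other DMSO libraries at 2.32 to 2.35. OR51J1 had 1.62 RPM on the opposite strand in DMSO replicate 1, which is 9 reads against 4 in each of the others. Sense reads of the members without OR51B5 were 2.08 RPM in dTAGV1 replicate 2, below the other dTAGV1 libraries. Sense reads of the other olfactory receptor genes were 1.98 RPM in dTAGV1 replicate 4, above the other dTAGV1 libraries.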

How the results depend on the processing

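The 8 genes tested by default kept their direction in each alternative run, and OR51I1 and OR51J1 in the 3 fits that held them. OR51B5 ranged from 0.27 to 0.46 on the log2 scale, OR51B4 from -2.86 to -2.2, OR51B2 from -2.1 to -1.6, OR51M1 from -1.31 to -1.17, OR51I2 from -0.89 to -0.65, OR51Q1 from -2.2 to -1.89, OR51B6 from -1.77 to -1.08 and OR52D1 from -1.24 to -0.93. Of the 8 genes tested by default, OR52D1 alone lost its call, in the 2 fits given above. With counts irrespective of strand, 8 members were called in place of 3, where 7205 of all 12832 tested genes were called. Such counts join both strands, on which 3 and 5 members were called apart. The summed sense reads differed by 0.2 on the log2 scale, by 0.297 relative to reads counted to genes on that strand, and by -1.19 without OR51B5, where the direction turned. Leaving out each library gave 3 to 3 sense calls, 4 to 5 opposite-strand calls, and summed differences of 0.163 to 0.228 and -1.28 to -1.13. The counts showed no clear pairing by replicate number. Deviations of same-numbered libraries correlated at 0.131, -0.0176, 0.0231 and 0.034, and 3 of 8 libraries correlated best with their own number. This does not show whether same-numbered libraries were handled together. With a replicate block, 3 sense and 5 opposite-strand members were called, and no call of a named gene changed. Low depth limits OR51I1, OR51J1 and the members at 0.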
